A study of Homo sapiens with 6 samples.

Results

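The 41 genes described here encode the actin cytoskeleton and the transcription factor that controls much of it: actins, filament crosslinkers, non-muscle myosin II, tropomyosins, calponin-family proteins, adhesion-plaque proteins, regulators of actin assembly, membrane linkers, and SRF with its coactivators MRTFA and MRTFB. They were chosen by name from a table of 58735 genes. 39 were found under the listed symbol, and MKL1 and MKL2 were found under their current symbols MRTFA and MRTFB. In 40 of the 41 the counts were high enough to be tested; CNN1, the calponin of smooth muscle, had 0 counts in all 6 libraries.

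Total RNA was sequenced from T3M4, an established human pancreatic ductal adenocarcinoma cell line, grown untreated in DMEM with serum to near confluence. 3 libraries are labelled WT, with a genotype given as MUC16 expressing, and 3 are labelled MUC16 knockout. MUC16 is a large membrane-tethered mucin. How the knockout was made, and whether the cells are 1 clone, is not given in the sources used here. The labels do not state that replicates are independent cultures; each p-value therefore reflects variation among these 6 libraries alone, and that variation may be technical.

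Library totals ran from 19088927 to 28612621 gene counts. MUC16 itself went against the labels: its level was 3.72, 5.35 and 4.03 CPM (counts scaled by library size and TMM) under the WT label and 14.9, 19.6 and 11 CPM among those labelled knockout, a log2 fold change of 1.79 ± 0.17 (SE). Counts summed by gene do not tell which parts of the transcript were covered. All directions below are those of the libraries labelled knockout relative to the libraries labelled WT; whether the labels were exchanged was not tested, and an exchange would turn every direction given. The libraries had an epithelial profile: all 8 epithelial markers listed (EPCAM, CDH1, KRT7, KRT8, KRT18, KRT19, ELF3 and CLDN4) were tested, and all 8 were higher in the libraries labelled knockout, their summed level going from 3633 to 3727 CPM in the libraries labelled WT to 5754 to 6027 CPM in those labelled knockout. Of 9 fibroblast markers 7 averaged under 1 CPM; their sum, 31.7 to 34.8 CPM under the WT label and 43.0 to 47.4 CPM under the knockout label, was nearly all COL1A1. Of 7 smooth muscle markers 5 averaged under 1 CPM, among them DES, ACTG2 and LMOD1, with MYOCD at 0; their sum, 165.6 to 168.7 against 89.8 to 95.2 CPM, was mostly SMTN, which is also counted below among the SRF targets. Of 7 leukocyte and endothelial markers 4 averaged under 1 CPM, PTPRC, CD68 and CD3E among them, and their sum was 16.2 to 19.2 against 23.4 to 26.4 CPM, mostly PECAM1. The part of these markers in the results below was not tested.

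Actin filaments grow from monomers that profilin delivers and cofilin recycles, are branched by the Arp2/3 complex, bundled by α-actinin and filamin, stabilised by tropomyosin and pulled by myosin II. Free actin monomers hold MRTF coactivators in the cytoplasm; when monomers are used up in filaments, MRTFs enter the nucleus and, with SRF, switch on many of the genes that encode these same proteins. SRF binds a short element called the CArG box. In epithelial cells this system sets cell shape, the tension on cell-cell junctions and the attachment to the matrix.

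Both cytoplasmic actins, ACTB and ACTG1, the crosslinkers FLNA and ACTN1, the myosin motor MYH9, the plaque proteins VCL, ZYX, TLN1 and PDLIM7, and SRF fell in the libraries labelled knockout, by 17.5% to 40.2%. Other abundant genes of the same roles did not pass the test, among them the α-actinin ACTN4, the myosin light chains MYL12A and MYL12B, cofilin CFL1 and the capping subunits CAPZA1 and CAPZB. Of the 10 tested genes averaging under 64 CPM, FLNC, ARPC1B, ACTA2 and TPM2 rose, TAGLN, MYL9 and MRTFB fell, and MYH10, TPM1 and MRTFA did not pass. The rise of FLNC was 3.32-fold; the calls of ACTA2 and TPM2 were lost with a scaling that follows expression level (cyclic loess) and with 1 library left out.

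By count, 22 of the 40 tested genes fell, 6 rose and 12 did not pass (edgeR quasi-likelihood test over 16655 genes, threshold 0.05 after Benjamini-Hochberg adjustment). Over all genes tested, 25.9% were called lower, 26.7% higher and 52.6% in either direction, against 55% lower and 15% higher among these genes. Most of them are abundant, and abundant genes in general were more often lower here. Of the 3869 genes with a mean of at least 64 CPM, 49.9% were called lower and 22% higher, with a median log2 fold change of -0.11; of the 30 cytoskeletal genes at that level, 19 were called lower (63.3%) and 2 higher, with a median of -0.25. The median over all 40 was -0.16, and over all genes tested 0.00. For 21 of the 40 every library labelled knockout lay below every library labelled WT, and for 6 above (29% and 30% of all genes tested). Cyclic loess gave 4179 lower and 4273 higher among all 16655 genes. It shrank the median of the 40 to -0.03 and gave 19 lower and 6 higher among them. Those 6 were not the same: ACTA2 and TPM2 no longer passed, while CFL1 and TAGLN2 did.

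The sizes were modest: 0 of the 22 falls and 1 of the 6 rises reached 2-fold, and 3 falls (FLNA, TAGLN and ACTN1) reached 1.5-fold. The 41 genes together took 2.64% ± 0.0174 of the WT-labelled counts and 2.19% ± 0.027 of the knockout-labelled ones (SD, n = 3 each). ACTB, FLNA and ACTG1, which had the 2nd, 10th and 11th most counts of the genes tested, took 1.33% ± 0.0174 and 0.953% ± 0.0256. In bulk RNA, fewer cells of a type and less RNA per cell cannot be told apart.

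**Figure D1:**
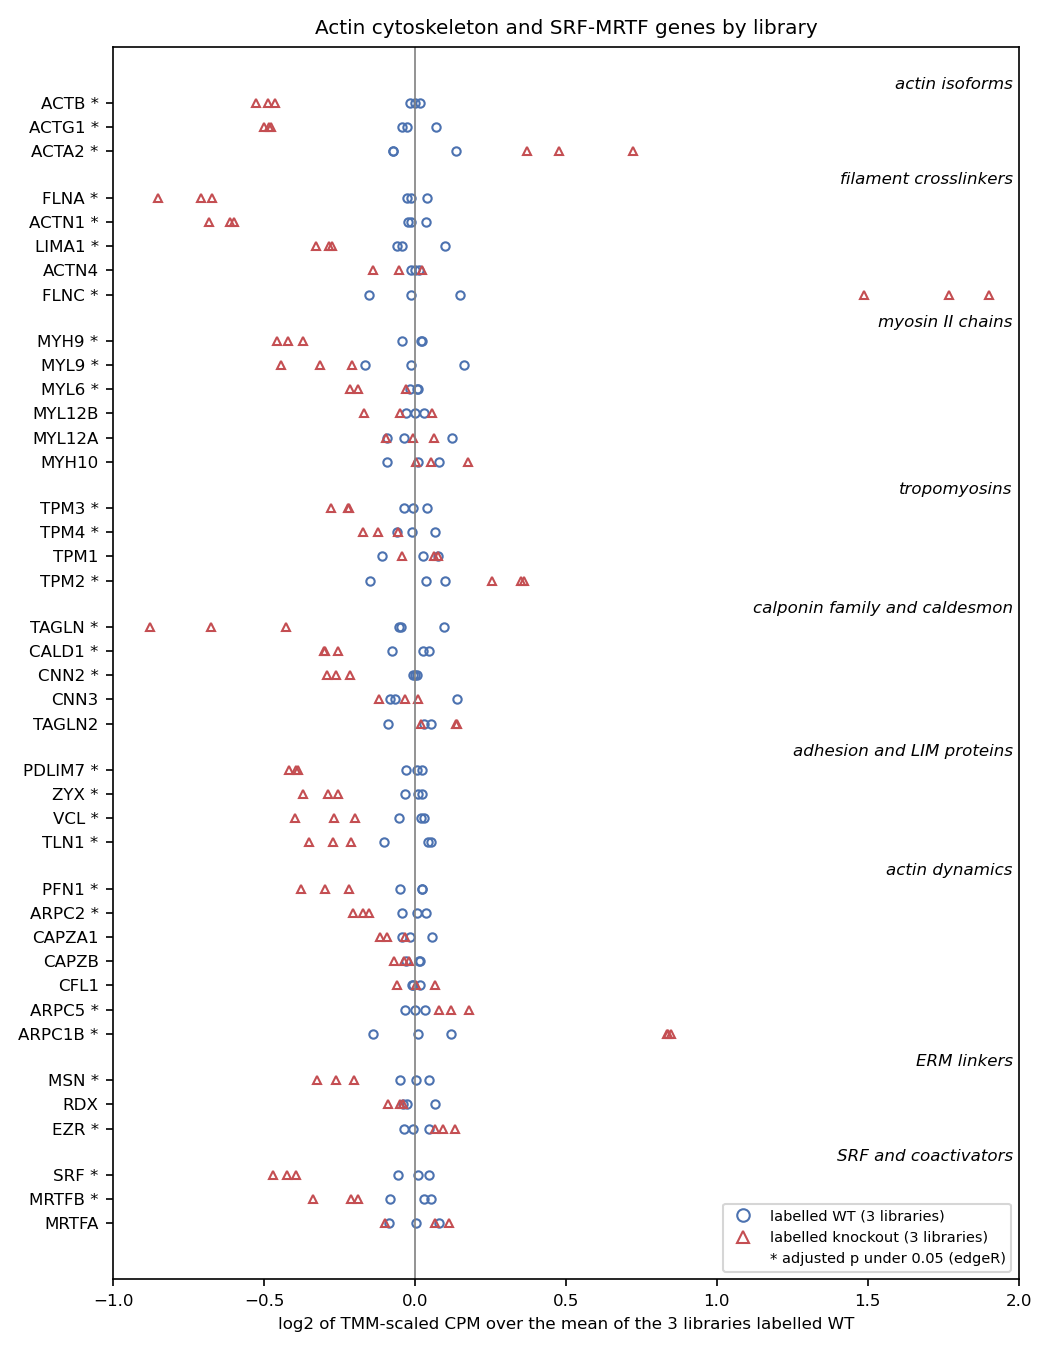
Each row is 1 of the 40 tested genes, grouped by role, and each point 1 library; the x axis is the log2 ratio of its TMM-scaled CPM to the mean of the libraries labelled WT. The 3 libraries labelled knockout lie to the left of all WT points for ACTB, ACTG1, FLNA, ACTN1, MYH9 and all 4 adhesion and LIM genes, and far to the right for FLNC.

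SRF, the DNA-binding partner of the system (chromosome 6, 43171299 to 43181507, plus strand, GRCh38), fell. It stood at 114, 117 and 109 CPM under the WT label and 84.4, 86.2 and 81.7 CPM under the knockout label, a log2 fold change of -0.43 ± 0.05 (SE, adjusted p = 4.46e-08). All 3 libraries labelled knockout were below all 3 labelled WT. Its coactivator MRTFB (chromosome 16, 14071321 to 14266773, plus strand) also fell, from 51.4, 55.6 and 56.5 to 47.7, 47.1 and 43.1 CPM (-0.25 ± 0.06, adjusted p = 0.00115). The other coactivator, MRTFA (chromosome 22, 40410281 to 40636702, minus strand), did not pass the test. Its levels were 48.9, 54.8 and 51.99 CPM and 54.3, 56.1 and 48.5 CPM, overlapping between the groups, with a log2 fold change of 0.03 ± 0.06 (adjusted p = 0.75). RNA levels do not show where the MRTF proteins were in the cell.

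The promoters of these genes were searched for the CArG box, CC followed by 6 positions of A or T and then GG, a form that reads the same way on both strands. RefSeq promoter windows (GRCh38.p14, 250 bases before to 50 after a transcript start) were given for 37 of the 41 genes, in 65 windows; ACTB, MYL9, TAGLN and ARPC1B had none. A box was found in 1 window each of 6 genes (16.2% of the 37), against 438 of the 27305 symbols with windows (1.6%). By window it was 454 of all 35116 (1.29%). The 41 were chosen as genes of the actin cytoskeleton and of SRF and MRTF, so this difference is not independent of the choice. They also had more windows per gene, 65 for 37 genes against 35116 for 27305 symbols. The 250 bases before the start are shown for these 6, all the genes of the 41 in which a box was found; the box is in capitals, each line is 5′ to 3′ on the strand of the gene, and the sequences are from RefSeq.

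FLNA (chrX:154374635-154374884, minus strand): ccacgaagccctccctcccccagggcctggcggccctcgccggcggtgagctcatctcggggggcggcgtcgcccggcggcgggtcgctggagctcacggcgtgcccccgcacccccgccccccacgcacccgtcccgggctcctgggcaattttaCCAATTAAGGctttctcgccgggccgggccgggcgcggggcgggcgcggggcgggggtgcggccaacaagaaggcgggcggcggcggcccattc
ACTN1 (chr14:68977567-68977816, minus strand): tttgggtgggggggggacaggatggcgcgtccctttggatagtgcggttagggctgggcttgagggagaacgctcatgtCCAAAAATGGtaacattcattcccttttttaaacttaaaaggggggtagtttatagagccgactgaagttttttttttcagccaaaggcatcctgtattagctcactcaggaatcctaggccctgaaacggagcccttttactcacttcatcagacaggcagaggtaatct
ACTG1 (chr17:81512800-81513049, minus strand): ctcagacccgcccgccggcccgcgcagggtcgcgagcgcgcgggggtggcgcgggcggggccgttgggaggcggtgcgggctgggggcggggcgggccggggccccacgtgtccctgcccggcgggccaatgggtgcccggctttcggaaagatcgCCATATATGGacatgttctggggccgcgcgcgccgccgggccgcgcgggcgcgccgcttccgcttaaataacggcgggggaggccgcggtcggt
SRF (chr6:43171019-43171268, plus strand): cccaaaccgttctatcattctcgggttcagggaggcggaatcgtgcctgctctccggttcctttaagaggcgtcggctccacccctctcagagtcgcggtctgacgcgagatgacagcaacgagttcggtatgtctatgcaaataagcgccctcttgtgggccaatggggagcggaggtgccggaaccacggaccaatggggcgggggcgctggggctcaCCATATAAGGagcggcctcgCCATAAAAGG
CNN2 (chr19:1026358-1026607, plus strand): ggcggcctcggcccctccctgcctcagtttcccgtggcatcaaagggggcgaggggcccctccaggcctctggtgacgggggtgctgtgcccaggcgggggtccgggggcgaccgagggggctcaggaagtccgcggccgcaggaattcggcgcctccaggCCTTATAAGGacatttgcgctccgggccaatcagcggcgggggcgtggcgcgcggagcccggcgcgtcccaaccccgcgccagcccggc
TPM4 (chr19:16067288-16067537, plus strand): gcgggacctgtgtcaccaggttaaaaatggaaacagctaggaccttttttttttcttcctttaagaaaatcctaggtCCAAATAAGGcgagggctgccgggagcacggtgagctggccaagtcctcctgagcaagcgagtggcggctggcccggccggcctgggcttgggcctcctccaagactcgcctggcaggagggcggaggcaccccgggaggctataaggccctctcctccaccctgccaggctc

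In ACTG1, FLNA and CNN2 the box began 94, 94 and 89 bases before the start, in ACTN1 and TPM4 171 and 173 bases before it. SRF carried 2 boxes, beginning 30 and 10 bases before its start. The windows of ACTG1, FLNA and CNN2 were the only ones given for these genes, while SRF had 2, TPM4 3 and ACTN1 4, so the box of the last 3 belongs to 1 of several starts, and gene-level counts do not say which start was used. The log2 fold changes were -0.74 for FLNA, -0.63 for ACTN1, -0.49 for ACTG1, -0.43 for SRF, -0.26 for CNN2 and -0.12 for TPM4. All 6 were called lower, but the call of TPM4 was lost in 7 of the 17 alternatives and its sign turned with cyclic loess (0.01). Of the 30 tested genes with windows and no box, 13 were lower, 5 higher and 12 not called (median -0.06). The groups were not matched by level. All 6 genes with a box averaged at least 64 CPM, whereas the 30 include genes under it, FLNC, MRTFA and MRTFB among them. Of 163 other tested genes with a box in a window, 53 were lower (32.5%) and 48 higher (29.4%), against 29.7% lower and 27.6% higher of all 11153 tested genes with windows. At a mean of 64 CPM or more, 24 of 47 such genes were lower (51.1%) and 17 higher (36.2%). Of all 3869 genes at that level 49.9% were lower and 22% higher, genes without a window and the cytoskeletal genes included. In the further pathway lists described below, 13 genes had a box and 8 of them were tested: SMTN, FHL1 and EGR1 were lower, MYO1E was higher, and FHL2, TGFB1I1, LPP and TES did not pass.

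**Figure D2:**
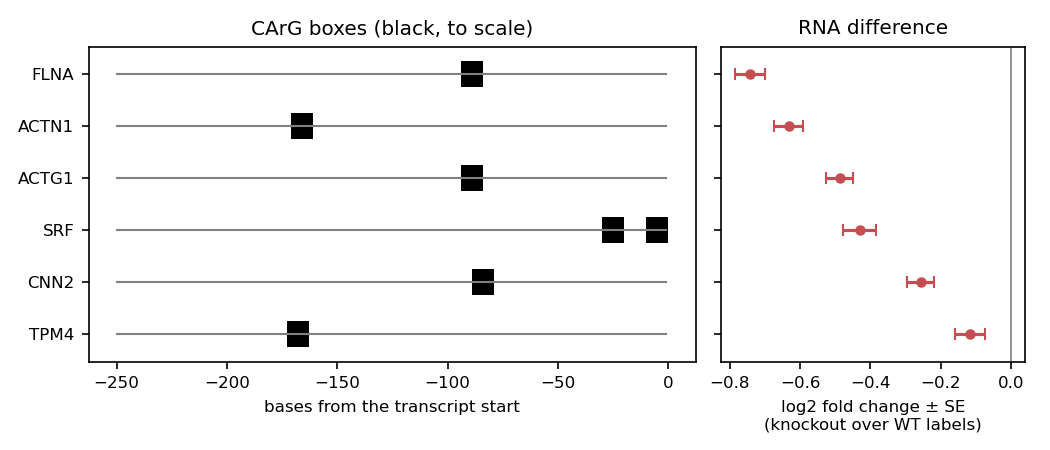
Left, the 250 bases before the transcript start of the 6 genes with a CArG box, the x axis in bases from the start and each box drawn to scale in black. Right, the log2 fold change of the same genes with its SE as bar; all 6 lie below 0, from -0.74 for FLNA to -0.12 for TPM4, which turned to 0.01 with cyclic loess.

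Both cytoplasmic actins fell, and nearly in step. ACTB (chromosome 7, 5527147 to 5563784, minus strand), the β-actin of all non-muscle cells, was measured at 6600.1, 6451 and 6519 CPM under the WT label and 4729.9, 4650.2 and 4524 CPM under the knockout label. ACTG1 (chromosome 17, 81509971 to 81523847, minus strand), the γ-actin, had 3440.0, 3182 and 3224 CPM and 2348, 2322 and 2356 CPM. The groups of both genes were far apart relative to their spread. Their log2 fold changes were -0.49 ± 0.04 (adjusted p = 6.31e-11) and -0.49 ± 0.04 (adjusted p = 2.41e-10), with SE. With cyclic loess both remained lower, at -0.33 each. Per kilobase of gene length, ACTB made up 62.8% ± 0.729 of the 3 actins under the WT label and 62.7% ± 0.611 under the knockout label, so the balance between them moved by less than its spread. These and the isoform shares below are descriptions, with no test. The coding sequences of ACTB and ACTG1 are 91.3% identical, with a longest shared run of 59 bases, so reads could be shared between them. Pseudogenes named after them took little: at most 0.0251% of the ACTB counts and 0.0503% of the ACTG1 counts.

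ACTA2, the smooth muscle α-actin, rose, at a far lower level per kilobase. It stood at 3.26, 2.82 and 2.82 CPM under the WT label and 3.84, 4.90 and 4.13 CPM under the knockout label, from 63 to 126 counts a library. The log2 fold change was 0.53 ± 0.17 (adjusted p = 0.00982); it no longer passed with cyclic loess (0.34, adjusted p = 0.0902) or without the second library labelled knockout (0.43, adjusted p = 0.0619). In the authors' deposited table ACTA2 had an adjusted p of 0.0562. Its exons overlap those of FAS on the opposite strand over 12.8% of their length, and FAS was at 22 CPM with a log2 fold change of 0.02, so the ACTA2 count is uncertain.

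Among crosslinkers, FLNA, ACTN1 and LIMA1 fell, ACTN4 did not pass and the muscle-type filamin FLNC rose. FLNA (chromosome X, 154348524 to 154374638, minus strand) ties filaments into networks and to integrins. It was at 3791, 3822 and 3968 CPM under the WT label and 2359.8, 2419.8 and 2142 CPM under the knockout label, the largest called fall of the 40 genes (-0.74 ± 0.04, SE, adjusted p = 1.14e-12). Among the 3869 genes of at least 64 CPM its log2 fold change was the 62nd lowest, and that of ACTN1 the 131st. FLNC (chromosome 7, 128830377 to 128859274, plus strand) had 8.84, 9.74 and 10.9 CPM and 33.5, 36.7 and 27.6 CPM, a rise of 1.73 ± 0.10 (adjusted p = 1.42e-12). The 2 filamins thus moved in opposite directions: FLNC went from 0.289% ± 0.0234 to 1.58% ± 0.127 of their sum per kilobase. FLNA remained by far the larger in all 6 libraries.

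The α-actinins, which bundle filaments and anchor them at adhesions, also parted. ACTN1 stood at 420.02, 416 and 435 CPM under the WT label and 279.6, 277 and 264 CPM under the knockout label (-0.63 ± 0.04, adjusted p = 6.58e-12). ACTN4 had 1120.1, 1132 and 1143 CPM and 1151, 1091 and 1029 CPM, overlapping, and did not pass (-0.05 ± 0.04, adjusted p = 0.281). ACTN1 made up 17.7% ± 0.240 of the pair per kilobase under the WT label and 12.6% ± 0.315 under the knockout label, with no overlap between the groups. LIMA1, a LIM protein that bundles filaments and slows their disassembly, fell from 96.5, 87.4 and 86.6 CPM to 74.05, 74.6 and 71.9 CPM (-0.30 ± 0.05, adjusted p = 2.88e-05).

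**Figure D3:**
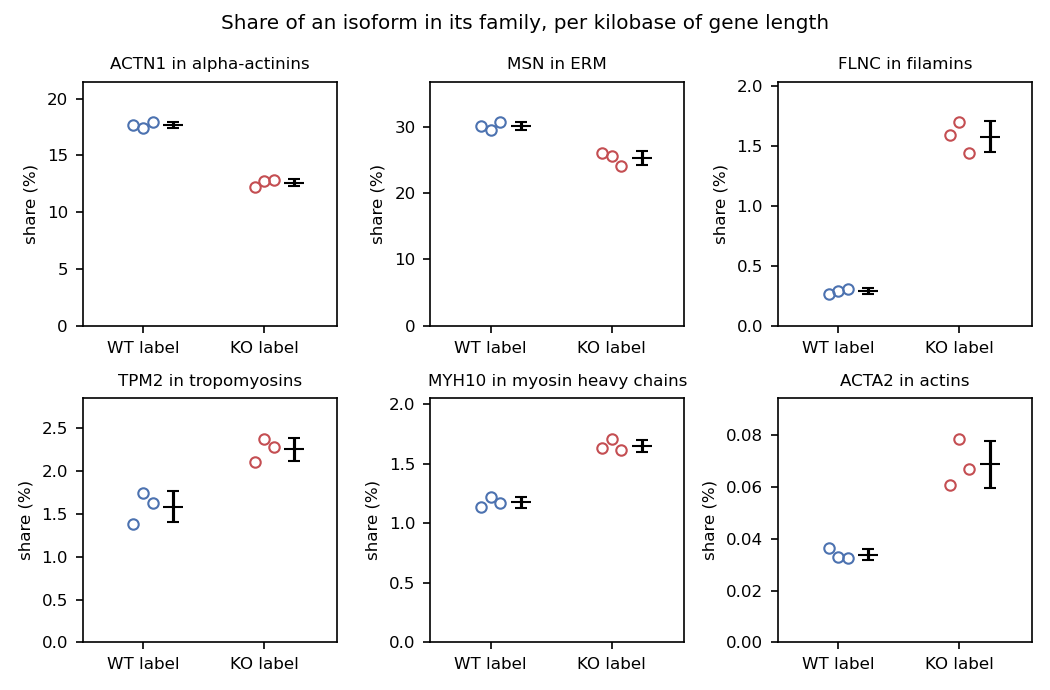
Each panel gives the share of 1 isoform in its family's level per kilobase of gene length, in percent; circles are the 3 libraries of each label, and bars the mean ± SD. The shares of ACTN1 and MSN were lower in every library labelled knockout, and those of FLNC, TPM2, MYH10 and ACTA2 higher.

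Of the 6 myosin II chains 3 fell and 3 did not pass. Over all genes tested 25.9% were lower, and 49.9% of those at 64 CPM or more. MYH9, the heavy chain of non-muscle myosin IIA, was at 1773, 1856 and 1857 CPM under the WT label and 1365, 1413 and 1331 CPM under the knockout label (-0.42 ± 0.04, SE, adjusted p = 3.41e-09). All libraries labelled knockout lay below those labelled WT. MYH10, the heavy chain of myosin IIB, was at 20.4, 22.97 and 21.9 CPM and 22.6, 24.5 and 21.8 CPM and did not pass (0.08 ± 0.08, adjusted p = 0.415). MYH10 was 1.18% ± 0.0438 and 1.65% ± 0.0522 of the 2 heavy chains per kilobase. The regulatory light chain MYL9, typical of contractile cells, fell from 27.7, 24.5 and 22.05 CPM to 18.2, 19.9 and 21.4 CPM (-0.31 ± 0.09, adjusted p = 0.00363), the lowest WT library standing just above the highest labelled knockout. The other regulatory light chains, MYL12A and MYL12B, are neighbours on chromosome 18 whose coding sequences are 91.9% identical. MYL12A averaged 110.4 ± 8.77 and 109.5 ± 5.95 CPM, MYL12B 266 ± 5.78 and 257 ± 20.1 CPM (SD), and neither passed (adjusted p = 0.871 and 0.378). The essential light chain MYL6 was at 684, 683 and 671 CPM and 596, 585 and 665 CPM, with the third library labelled knockout close to the WT values (-0.14 ± 0.04, adjusted p = 0.00946). That call was lost with upper-quartile factors (-0.09, adjusted p = 0.103), with cyclic loess (-0.01, 0.903) and without the first (0.0575) or second (0.0591) library labelled knockout. Exons of SMARCC2 on the opposite strand cover 11.2% of MYL6, and SMARCC2 was at 219 CPM with no call (0.01). Those of MYL6B on the same strand cover 1.93%, and MYL6B was at 55.8 CPM and higher (0.35).

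Tropomyosins, which line actin filaments and decide which motors and crosslinkers bind them, went both ways. TPM3, the most abundant, fell from 997, 946 and 966 CPM to 832, 799.5 and 833 CPM (-0.24 ± 0.04, SE, adjusted p = 1.36e-05). TPM2, a muscle-type form, rose from 8.04, 9.55 and 9.14 CPM to 10.6, 11.4 and 11.4 CPM (0.33 ± 0.10, adjusted p = 0.011), but did not pass with cyclic loess (adjusted p = 0.0688) or without the first library labelled WT (0.0695). TPM4 had 482, 441 and 456 CPM and 443, 408 and 423 CPM, overlapping slightly, and passed narrowly (-0.12 ± 0.04, adjusted p = 0.0268). The TPM4 call was lost in 7 of the 17 alternatives, among them without the first (adjusted p = 0.124) or the third (0.0621) library labelled WT or the second labelled knockout (0.12), and with cyclic loess its sign turned (0.01). TPM1 averaged 22.6 ± 1.47 and 23.2 ± 1.05 CPM (SD, n = 3 each) and did not pass (0.04 ± 0.08). As shares of the 4 tropomyosins per kilobase, TPM3 went from 66.7% ± 0.260 to 64.3% ± 0.431 and TPM4 from 30.7% ± 0.433 to 32.3% ± 0.613. TPM1 and TPM3 have many alternative exons, which the deposited gene length adds up. Pseudogenes of TPM3 took up to 2.99% of its counts.

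In the calponin family, which binds along filaments and restrains myosin, TAGLN and CNN2 fell. TAGLN, the smooth muscle transgelin and a standard SRF target, was low, 4.02, 3.64 and 3.63 CPM under the WT label and 2.35, 2.80 and 2.05 CPM under the knockout label, or 46 to 106 counts a library. The groups did not overlap (-0.65 ± 0.18, SE, adjusted p = 0.00415). Its exons share 11.4% of their length with PCSK7 on the opposite strand, which was at 80.9 CPM with a log2 fold change of -0.07, so the TAGLN count is uncertain. TAGLN2, the transgelin of epithelial cells, was far more abundant per kilobase, at 841, 928 and 913 CPM and 984, 906 and 982 CPM, and did not pass (0.10 ± 0.04, adjusted p = 0.0632). It was called higher with cyclic loess (0.24, adjusted p = 4.1e-05), with upper-quartile factors (0.15, 0.00495) and in 4 other alternatives. CNN2, the calponin of non-muscle cells, fell from 523, 524 and 519.8 CPM to 449.6, 436 and 426 CPM (-0.26 ± 0.04, adjusted p = 5.35e-06). CNN3 averaged 75.3 ± 6.55 and 72.9 ± 3.25 CPM (SD, n = 3 each) and did not pass. Caldesmon, CALD1, which blocks myosin on thin filaments, fell from 107, 100.01 and 109 CPM to 85.6, 85.4 and 88.3 CPM (-0.28 ± 0.05, adjusted p = 1.99e-05).

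All 4 adhesion and LIM genes fell, by similar amounts. They averaged over 64 CPM, a level at which 49.9% of all genes were lower. Talin, TLN1, links integrins to actin and went from 201, 222 and 224 CPM to 186, 179 and 169 CPM (-0.28 ± 0.05, SE, adjusted p = 3.24e-05). Vinculin, VCL, which strengthens that link under force, went from 324, 306 and 321 CPM to 263, 276 and 240.5 CPM (-0.29 ± 0.05, adjusted p = 1.76e-05). Neither gene overlapped between the groups. Zyxin, ZYX, a LIM protein of mature adhesions and stress fibres, went from 138, 132 and 136 CPM to 113, 111 and 105 CPM (-0.31 ± 0.04, adjusted p = 4.07e-06). PDLIM7, a PDZ and LIM scaffold, went from 182, 189 and 187 CPM to 142, 141 and 139 CPM (-0.40 ± 0.04, adjusted p = 1.95e-08). PDLIM7 lies on chromosome 5, whose 781 tested genes had a median log2 fold change of -0.20, with 111 higher and 366 lower; the part of this in its fall was not tested. Exons of AP3M1 on the opposite strand cover 11.1% of VCL; AP3M1 was at 70.0 CPM and also lower (-0.18).

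Of 7 genes of actin assembly and turnover, 2 fell, 2 rose and 3 did not pass, against 25.9% lower and 26.7% higher of all genes tested. With cyclic loess 1 fell and 3 rose, against 4179 lower and 4273 higher of all 16655 genes. Profilin, PFN1, which loads monomers for filament growth, fell from 863, 864 and 821 CPM to 691, 653 and 729 CPM (-0.30 ± 0.04, SE, adjusted p = 2.96e-06). Cofilin, CFL1, which severs old filaments, was at 1055, 1075 and 1059 CPM and 1065, 1020.4 and 1112 CPM, with no call (0.00 ± 0.04, adjusted p = 0.939), and was called higher with cyclic loess alone (0.15, adjusted p = 0.00169). Exons of MUS81 on the opposite strand cover 12.9% of CFL1, and MUS81 was at 61.9 CPM and lower (-0.37). The capping protein subunits CAPZA1 and CAPZB had log2 fold changes of -0.08 ± 0.04 and -0.04 ± 0.04 and did not pass. Of 3 Arp2/3 subunits, ARPC2 fell from 337, 319 and 330.2 CPM to 292, 285 and 296 CPM (-0.18 ± 0.04, adjusted p = 6.64e-04), a call lost with cyclic loess (-0.06, adjusted p = 0.238). ARPC5 rose slightly, from 252 ± 5.58 to 276 ± 9.48 CPM (0.13 ± 0.04, adjusted p = 0.0122), a call lost without the third library labelled WT (0.0892). ARPC1B rose from 3.34, 2.79 and 3.09 CPM to 5.53, 5.49 and 5.50 CPM (0.84 ± 0.15, adjusted p = 5.01e-05). Its count is uncertain, 69 to 161 a library. AC004922.1 on the same strand shares 32.4% of the ARPC1B exon length and was at 0.0512 CPM. PDAP1 on the opposite strand shares 2.51% and was at 149.4 CPM, with a log2 fold change of -0.15. The alternative subunit ARPC1A, outside the 41 genes, was at 28.5 ± 1.05 and 33.8 ± 3.74 CPM (0.25 ± 0.08, SE).

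The ERM proteins fasten filaments to the plasma membrane, and their balance moved. Moesin, MSN, fell from 679.6, 636 and 659.6 CPM to 572, 548 and 525 CPM (-0.26 ± 0.04, SE, adjusted p = 1.06e-05). Ezrin, EZR, the ERM protein of the apical surface of epithelia, rose slightly from 802, 773 and 757 CPM to 829.9, 815 and 852 CPM (0.10 ± 0.04, adjusted p = 0.0375), a call lost in 8 of the alternatives, among them without the second (adjusted p = 0.113) or the third (0.216) library labelled WT and the first (0.0943) or the third (0.0897) labelled knockout. Radixin, RDX, averaged 204 ± 8.28 and 196 ± 3.46 CPM (SD, n = 3 each) and did not pass (-0.06 ± 0.04). Per kilobase, ezrin went from 63.4% ± 0.581 to 68.4% ± 1.16 of the 3 ERM genes and moesin from 30% ± 0.598 to 25.3% ± 1.05, with no overlap between the groups.

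**Figure D4:**
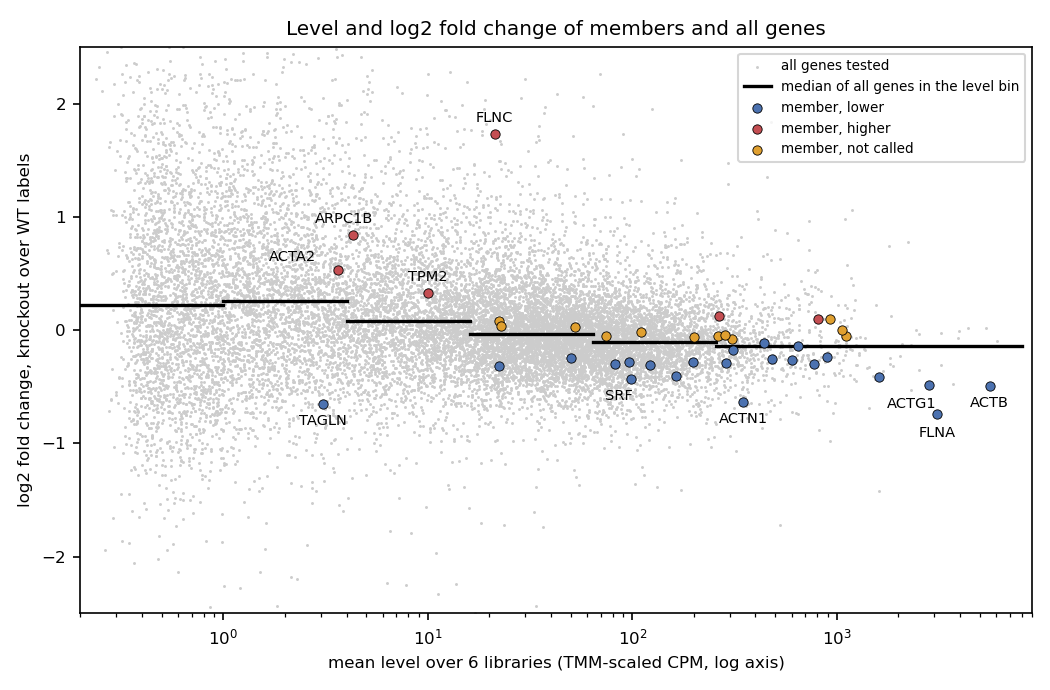
Mean level over the 6 libraries (TMM-scaled CPM, log axis) against log2 fold change for all genes tested (grey) and the 40 cytoskeletal genes (coloured by call); black lines are the medians of all genes in bins of level, and genes beyond the ends of the axes are not drawn. The most abundant genes, ACTB, FLNA and ACTG1, lie below the median of their bin (-0.14), and the 4 largest rises belong to genes of low level.

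The deposited gene length adds up alternative exons (5863 bases for CFL1, 1987 for PFN1), so the order of the genes given here depends on it. Per kilobase of that length, ACTB was the most abundant of the 41 at 1854 ± 21.3 and 1317 ± 29.4 CPM per kb (SD). ACTG1 followed at 1097 ± 46.3 and 782 ± 5.96. PFN1 (427 ± 12.3), FLNA (365 ± 8.96) and TAGLN2 (359 ± 18.8) came next in the libraries labelled WT; FLNA and TAGLN2 did not differ beyond their spread. In the libraries labelled knockout the order of these 3 was TAGLN2 (385 ± 17.9), PFN1 (348 ± 19.1) and FLNA (218 ± 13.8), with TAGLN2 and PFN1 overlapping.

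The 41 genes are a part of the system, so the other genes of the pathway were counted from 6 further lists. For comparison, 25.9% of all genes tested were lower and 26.7% higher. At a mean of 64 CPM or more the shares were 49.9% and 22%, with a median log2 fold change of -0.11. Whether the lists differ from other genes of their level was not tested. Other genes reported as targets of SRF with MRTF were lower more often than higher, 10 and 2 of 17 tested (22 listed, median -0.28). Among them were ANKRD1 (-2.24 ± 0.14, SE), CTGF (-1.79 ± 0.14) and CYR61 (-1.36 ± 0.05), 3 genes that the coactivator YAP also controls. SMTN, smoothelin, an actin-binding protein, went from 146.2 ± 3.13 to 72.4 ± 0.940 CPM (-1.01 ± 0.04). Of ACTA1, ACTC1 and ACTG2, the other muscle actins, none was expressed enough to be tested. ITGA5, the α-chain of the fibronectin receptor, rose (0.77 ± 0.05); it was named after its value was seen. With cyclic loess the count was 8 lower and 3 higher (median -0.15).

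Immediate early genes, which SRF controls mainly with TCF partners of the ETS family, did not lean one way: 4 rose and 3 fell of 12 tested (median -0.03). JUNB (0.58 ± 0.05, SE) and ATF3 (0.76 ± 0.12) rose and EGR1 fell (-0.52 ± 0.07). FOS rose at a low level, from 5.60 ± 0.455 to 7.09 ± 0.905 CPM, a call lost with cyclic loess (0.19, adjusted p = 0.229).

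Other Arp2/3 and WAVE or WASP subunits mostly did not pass, with 2 higher, 3 lower and 13 not called of 18; with cyclic loess 6 were higher. ARPC5L (-0.36 ± 0.04, SE) and WASF1 (-0.36 ± 0.07) fell and ARPC3 rose (0.30 ± 0.04). Monomer-binding, capping and severing proteins were 7 higher and 6 lower of 21. CAPG, a barbed-end capping protein of the gelsolin family, rose from 61.1 ± 3.75 to 121.6 ± 3.30 CPM (0.99 ± 0.05), and TWF2 rose (0.47 ± 0.06). COTL1, a small cofilin-like protein, fell from 587.2 ± 14.1 to 358.8 ± 3.53 CPM (-0.71 ± 0.04), and CAP2 fell (-0.71 ± 0.09).

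Focal adhesion proteins outside the 41 were 6 higher and 10 lower of 26; with cyclic loess 9 and 8. FERMT1, kindlin-1, an integrin activator of epithelia (-0.64 ± 0.04, SE), and CSRP1, a LIM protein (-0.56 ± 0.04), fell, and TNS2, a tensin (1.26 ± 0.14), and EVL, a filament elongator (0.61 ± 0.14), rose at low levels. Other crosslinkers and cortex proteins split into 8 higher and 11 lower of 23, and 10 and 7 with cyclic loess. MYH14, the heavy chain of myosin IIC, rose from 89.6 ± 2.38 to 162.8 ± 1.14 CPM (0.86 ± 0.04), against the fall of MYH9. The membrane-bound actin crosslinkers MARCKS (0.83 ± 0.04) and MARCKSL1 (0.82 ± 0.06) rose, and the filopodial motor MYO10 fell from 293.3 ± 9.88 to 166.4 ± 3.68 CPM (-0.82 ± 0.04).

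**Figure D5:**
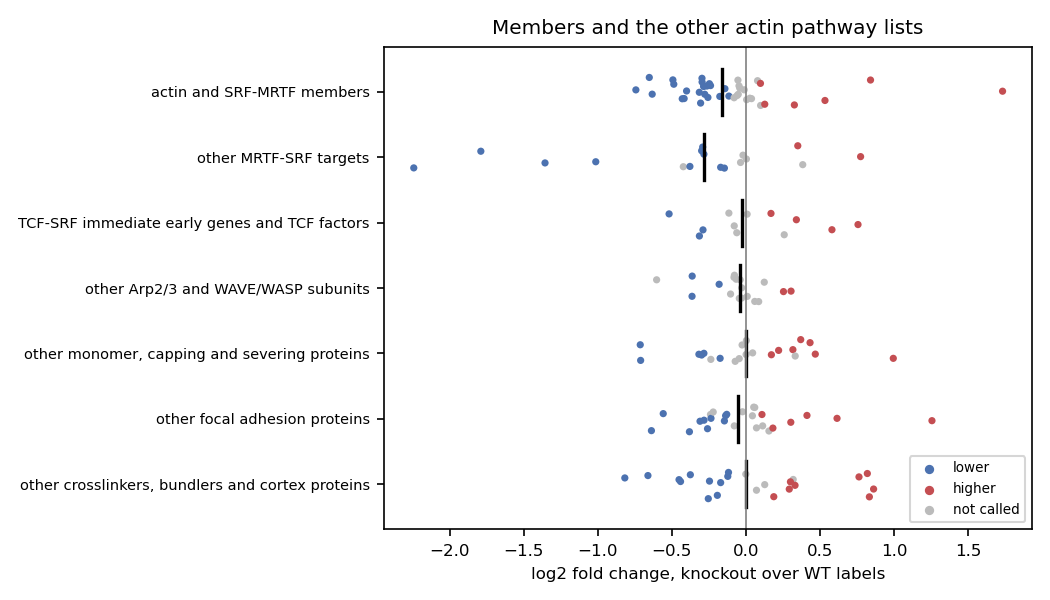
Log2 fold change of each tested gene (points, coloured by call) in the 40 cytoskeletal genes and in 6 further lists of actin pathway genes; black bars are medians and the vertical spread within a row has no meaning. The medians of the 40 genes (-0.16) and of the other MRTF-SRF targets (-0.28) lie below 0, and those of the other lists near it.

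The authors' deposited table lists 40 of the 41 genes and calls 26 of them, all called here as well; the 2 genes called here and not there are ACTA2 and TPM2. Log2 fold changes differed by at most 0.0127 between that table and the values here. Both rest on the same counts.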

How the data were processed

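RNA-seq of 6 T3M4 libraries, 3 per label, was analysed from the deposited table of raw counts per gene. The submitters' processing notes name fastp, HISAT2, STAR, DESeq and the builds GRCh38 and hg38, without versions; which program counted reads, and whether by strand, is not given in the sources used here. The authors' deposited comparison table holds the same counts, a signal (counts divided by 1 factor per library), FPKM values, log2 fold changes and p-values; of these the log2 fold changes and adjusted p-values were used for comparison. Gene lengths, another deposited column, gave levels per kilobase. They add up alternative exons, so levels per kilobase and isoform shares depend on the annotation.

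Counts were tested with edgeR 4.0.16 (R 4.3.3): genes passing filterByExpr (minimum count 10, minimum total 15), TMM factors, glmQLFit and glmQLFTest over all 6 libraries with no covariate, and Benjamini-Hochberg adjustment over 16655 genes at 0.05. The biological coefficient of variation was 0.0498. The step was also run on simulated counts in which few genes changed, as many up as down, with a common dispersion. In the data 52.6% of genes were called, so that run does not test the scaling used here. Every adjusted p printed is from this test unless an alternative or the authors' table is named, and ± after a log2 fold change is its SE and after a level or share its SD (n = 3). CPM were scaled by TMM. Alternatives were other scalings and filters, DESeq2 1.42.0, limma 3.58.1 (voom, or trend after cyclic loess), a replicate block, subsets of genes, a threshold of 0.01, and leaving out each library. No 2 libraries of a label were duplicates: a chi-square of their counts gave 2.40 to 6.20 per degree of freedom. The fit left 4 residual degrees of freedom.

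The genes and lists were chosen with earlier results of these data known. Values in every library were to be given for SRF, its coactivators, the actins and up to 20 others with the largest called changes; from each pathway list up to 4 genes with the largest called changes and a mean of at least 100 counts were named. Promoter windows were RefSeq's (GRCh38.p14), matched by symbol. Protein sequences were not used here. 1 further pathway list is not reported here.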

Additional observations from a re-analysis of the deposited data

How the results depend on the processing

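Of the 28 calls, 21 held in each of the 17 alternatives in which the gene was tested, 19 lower and 2 higher (FLNC and ARPC1B). PDLIM7, 1 of the 19, lies on chromosome 5, so the alternative without that chromosome did not test it. Depth was low for ACTA2, TAGLN and ARPC1B, at 46 to 161 counts a library. The median log2 fold change of the 40 genes, -0.16, was -0.10 with upper-quartile factors and -0.031 with cyclic loess, and -0.19 to -0.13 with 1 library left out, lowest without the third library labelled knockout. Leaving out 1 library gave 4 to 6 higher and 20 to 24 lower among the 40 and 7921 to 8221 calls among all genes, against 8759. At a threshold of 0.01, 3 were higher. The replicate numbers did not pair the libraries (same-number correlations 0.01, 0.02 and -0.02); the replicate block gave 8442 calls, 5 higher and 22 lower, and the 1 call it ended was EZR (adjusted p = 0.0676).

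Signs turned for 11 genes, 10 of them not called and the other TPM4; the cause was not tested. With upper-quartile factors the log2 fold changes were 0.00145 for ACTN4, 0.0435 for MYL12A, 0.00331 for MYL12B, 0.00829 for CNN3 and 0.0138 for CAPZB. With cyclic loess they were 0.0916 for ACTN4, 0.0801 for MYL12A, 0.0617 for MYL12B, 0.0148 for TPM4, 0.0318 for CNN3, 0.0406 for CAPZA1, 0.0771 for CAPZB and 0.0506 for RDX. The 50-count filter gave 0.0151 for MYL12A; no filter gave -0.00977 for CFL1, and leaving out chromosome 5 gave -0.0048. With 1 library left out, log2 fold changes ran from -0.0613 to 0.0513 for MYL12A, -0.11 to 0.00675 for MYL12B, -0.0187 to 0.0714 for TPM1, -0.0915 to 0.0246 for CNN3, -0.0264 to 0.0375 for CFL1 and -0.0196 to 0.0901 for MRTFA.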
